A study of Mus musculus with 111 samples.

Results

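Cytosolic serine tRNAs are followed here through small RNA libraries of 6 mouse tissues. They are the entries of a read-count table whose name gives the amino acid serine, an anticodon and 1 copy number. Of 12 such entries among 1042, the 10 with the highest summed counts over all libraries were kept, so they were chosen by their summed counts, which are given as a description only. They are AGA-1, AGA-2, CGA-1, CGA-2, GCT-1, GCT-2, GCT-3, GCT-4, TGA-1 and TGA-2, each named by its anticodon in DNA letters and its copy number. The last kept was CGA-1 with 1382 reads, and the first left out was CGA-3 with 244 reads, followed by GCT-5 with 34. Together the 10 members held 104718 reads, or 1.46% of the reads of the 213 cytosolic tRNA entries. A further 12 entries for antisense serine tRNA held 0 reads.

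OTTR-seq was used to make the libraries: the reverse transcriptase that copies an RNA also adds both adapters, after the RNA ends had been treated with a kinase. Liver, heart, testis, the caput and cauda of the epididymis, and sperm taken from the cauda came from mice kept for 6 months on 1 of 4 diets. The control diet (C) held 18% protein, and the low-protein diet (LP) held 10%, with sucrose in place of the missing protein. The high-fat control diet (CHF) gave 7.2% of its calories as fat and the high-fat diet (HF) 60%, although the same protocol also sets HF against a figure of 16%. Each of the 24 groups of tissue and diet had 4 or 5 libraries. Mice were group-housed, no transgene or deletion is named, and the labels used here give neither strain nor age. Nothing in the labels ties each library to an animal of its own, so p-values measure the spread between libraries, part of which may be technical.

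Serine has 6 codons and, in vertebrates, 4 kinds of cytosolic tRNA. The AGA, CGA and TGA tRNAs read codons that begin with UC, while the GCT tRNA reads the unrelated pair AGC and AGU. A single cytosolic enzyme, seryl-tRNA synthetase, charges all of them. It recognises the long variable arm that serine tRNAs share with leucine tRNAs and not the anticodon. The same enzyme charges the selenocysteine tRNA, on which the serine is then converted to selenocysteine, and mitochondria have their own pair of serine tRNAs. Cleaved tRNAs are abundant in sperm, which carry little protein synthesis. An entry here does not separate a full-length tRNA from a fragment of it.

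RefSeq lists 21 cytosolic serine tRNA genes on GRCm38.p6, each 82 bases long: 7 for AGA, 3 for CGA, 8 for GCT and 3 for TGA. Of these, 12 lie on chromosome 13 between positions 21492845 and 23521951. The entry names of the count table were not mapped to these genes, so no position or sequence is given for a member. The genes are of equal length, but the length of what each entry counts is not known, so shares are given per read. How reads of near-identical copies were divided is not given here in any source used, so values of single entries are uncertain and sums over an anticodon are given beside them.

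Over the 1042 entries, libraries held 827 to 1467880 reads, with a median of 59904, and 3 libraries had under 5000. Serine tRNA reads were few in part of them: the median was 1063 per testis library, 561 per heart library, 547 per cauda library, 84 per sperm library, 61 per liver library and 24 per caput library. A heart library (CHF replicate 4, 11320 reads) and a liver library (HF replicate 3, 827 reads) held 0. Class shares fitted the labelled tissues in 2 checks: mitochondrial tRNA took a median of 76.4% of reads in heart against 8.18% to 47.7% elsewhere, and piRNA precursors 3.30% in testis against 0.57% or less. In every tissue but heart the 4 diet groups carry separate runs of numbers marked with the letter S in the column names. In heart the C and LP groups do, while the CHF and HF columns carry no such number. Where these S numbers are given, diet cannot be told apart from whatever they stand for. In heart, CHF against C cannot be told apart from the lack of a number either. The runs of C and LP lay apart in liver (1 to 4, 48 to 52) and heart (5 to 9, 35 to 39). In testis they were adjacent (48 to 52, 53 to 57). In tissue RNA, fewer cells of a type and less RNA per cell cannot be told apart.

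Serine tRNAs were most abundant in testis and cauda. Levels are given in RPM, the reads of an entry per 1000000 reads of the library over the 1042 entries, as the median over libraries with the lowest and highest. The members summed reached 8029 (1227 to 27826) RPM in the 19 testis libraries and 7991 (2239 to 19690.3) in the 18 cauda libraries. Sperm held 2866 (1087 to 27328) RPM, caput 1622 (324 to 3485), heart 1139 (0 to 1842) and liver 1003 (0 to 12584). The ranges of testis, cauda and sperm overlapped widely, as did those of caput, heart and liver. As a share of all cytosolic tRNA reads, the order differed: the median library gave 2.45% in sperm, 2.20% in cauda, 1.56% in testis, 0.51% in heart, 0.38% in liver and 0.28% in caput.

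GCT, the anticodon of the AGC and AGU codons, set the order of the summed levels. Its members reached a median of 6877 RPM in testis and 6196 in cauda, against 1116 in sperm, 958 in caput, 801 in heart and 556 in liver. The TGA members, which read UCN codons, were at similar medians of 887 RPM in cauda and 845 in sperm, with 531 in testis, 425 in caput, 141 in heart and 129.8 in liver. Sperm thus sat near cauda for TGA and near caput for GCT. The AGA members followed the TGA order at lower levels, with medians of 598 RPM in cauda, 495 in sperm, 243 in testis, 128 in caput, 76.7 in heart and 67.6 in liver. The CGA members ran at 330.0 RPM in cauda, 296 in testis, 219.7 in sperm, 154 in caput, 64.9 in liver and 60.2 in heart. Neighbours in each of these orders overlapped in their library values.

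**Figure D1:**
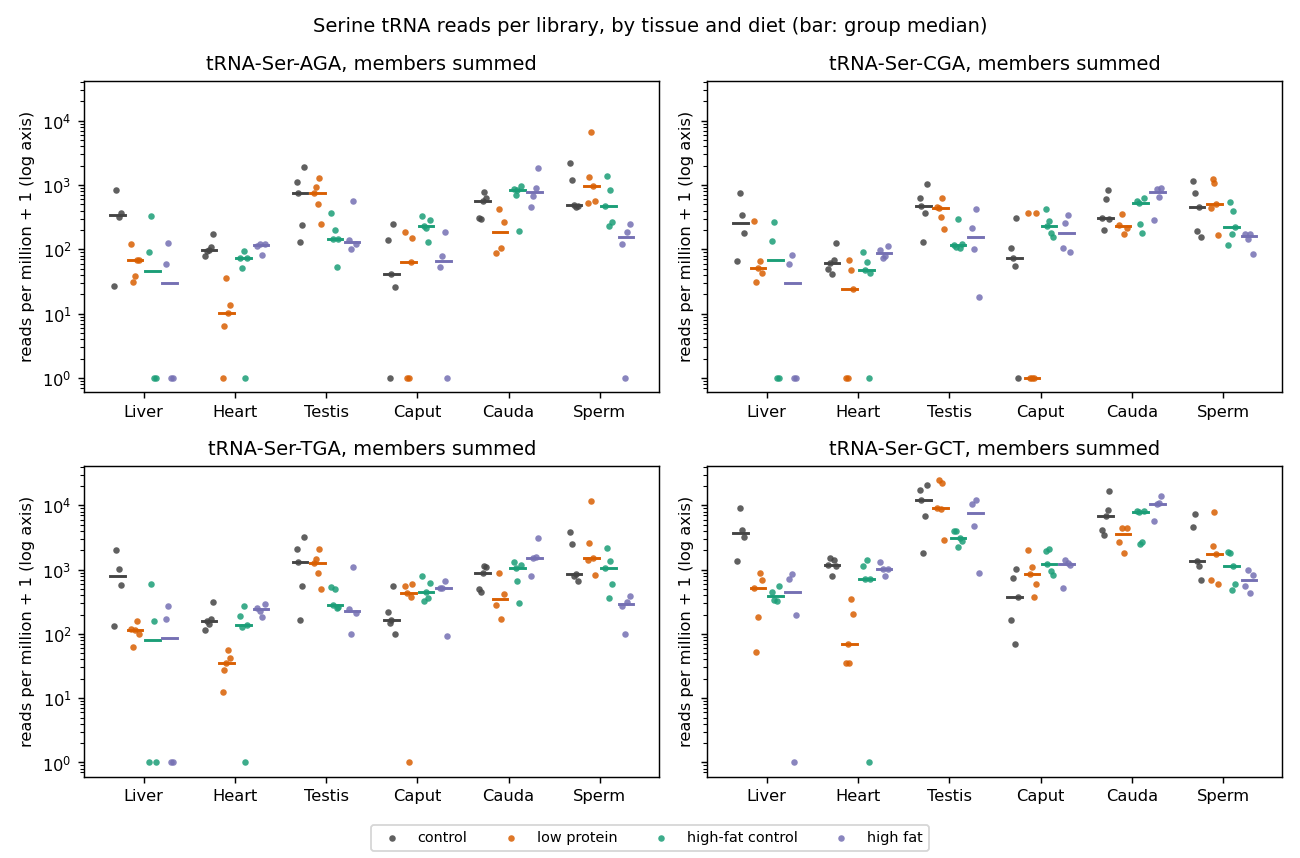
RPM plus 1 (log axis) of the members of each serine anticodon, 1 point per library and a bar at the group median, by tissue and diet. The GCT panel reaches its highest values in testis and cauda, the heart LP libraries lie below the other heart diets in the GCT panel apart from the CHF library with 0 serine reads, and 1 sperm LP library lies above the rest of its group in the AGA, TGA and GCT panels.

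Within an anticodon, one entry took most reads. GCT-3 held 53584 reads over all libraries and was detected in 109 of them, GCT-2 held 18900, GCT-4 held 5166 and GCT-1 held 1968. TGA-2 held 8607 reads and TGA-1 4549, AGA-1 held 5661 and AGA-2 1588, and CGA-2 held 3313 and CGA-1 1382. These totals weight the deepest libraries most and describe the choice of members.

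The make-up of the serine tRNA pool differed between tissues. GCT supplied most serine reads in testis, cauda, heart and liver, and less than the 3 UCN anticodons together in most sperm libraries. In the median sperm library GCT took 38.9% of serine reads, TGA 32.1%, AGA 17.3% and CGA 10.7%. In the median testis library the same shares were 83.8%, 7.86%, 4.91% and 2.99%, and in cauda 77.7%, 10.2%, 6.39% and 5.47%. A share within the serine reads does not depend on how libraries are scaled.

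The GCT share was tested over libraries with at least 20 serine reads, with permutation tests of the difference in means (two-sided, 100000 resamples, 5 contrasts adjusted together); this share was chosen for testing after its values were seen. In 19 sperm libraries it was 41.2% ± 13.9 (SD), from 22.9% to 80.0%. The 18 cauda libraries gave 77.1% ± 6.17, from 58.8% to 89.2%, and the 2 ranges overlapped through the highest sperm libraries. Sperm minus cauda was -35.8 percentage points (adjusted permutation p = 2.5e-05). Sperm minus testis, where 19 libraries gave 83.0% ± 6.74, was -41.8 points (adjusted permutation p = 2.5e-05). The raw p of 2e-05 is the smallest these resamples can give. Caput also stood below its neighbours along the tract: 13 libraries gave 50.1% ± 16.1, caput minus testis was -32.96 points and cauda minus caput 26.99 points (adjusted permutation p = 2.5e-05 for both). Heart, at 74.5% ± 5.33 in 15 libraries, and liver, at 64.5% ± 18.1 in 11, differed by 10.0 points (adjusted permutation p = 0.052). That difference was 3.61 points with a minimum of 50 reads, 4.17 with a minimum of 1 read, and 1.40 in control-diet libraries alone (exact permutation, adjusted p = 0.83), and the other diets had too few libraries for it. Testis, caput, cauda and sperm each enter more than 1 of these contrasts.

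The other 4 contrasts kept their direction in each diet where they could be computed. In control-diet libraries alone, sperm minus cauda was -35.1 points, sperm minus testis -37.1, caput minus testis -39.4 and cauda minus caput 37.4 (exact permutation tests, adjusted p = 0.02 for each). In LP libraries, sperm minus cauda was -50.0 points and sperm minus testis -52.9 (exact permutation, adjusted p = 0.016 for both), and the contrasts with caput were not computed, since only 1 LP caput library reached 20 serine reads. In CHF libraries, the 4 differences in the order above were -35.1, -44.1, -24.4 and 15.5 points (exact permutation, adjusted p = 0.011 for the first 3 and 0.032 for the last). In HF libraries they were -20.4, -30.8, -33.7 and 23.3 points, and none passed after adjustment (exact permutation, adjusted p = 0.14 for sperm against cauda and 0.076 for the others). With 3 HF caput libraries against 4, the exact test cannot go below 0.057, and with 4 against 4 not below 0.029. After adjustment over the 4 contrasts none could pass, so the HF p-values decide nothing. Depth moved with the comparison in part, since the median caput library held 24 serine reads and the median sperm library 84, against 547 in cauda, and it was tested through the minimum number of reads alone. With a minimum of 50 serine reads, sperm minus cauda was -38.6 points, sperm minus testis -44.5, caput minus testis -31.0 and cauda minus caput 25.02, and with a minimum of 1 read they were -35.8, -41.8, -25.6 and 19.6. All 4 passed under both (permutation tests, highest adjusted p = 0.00022).

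**Figure D2:**
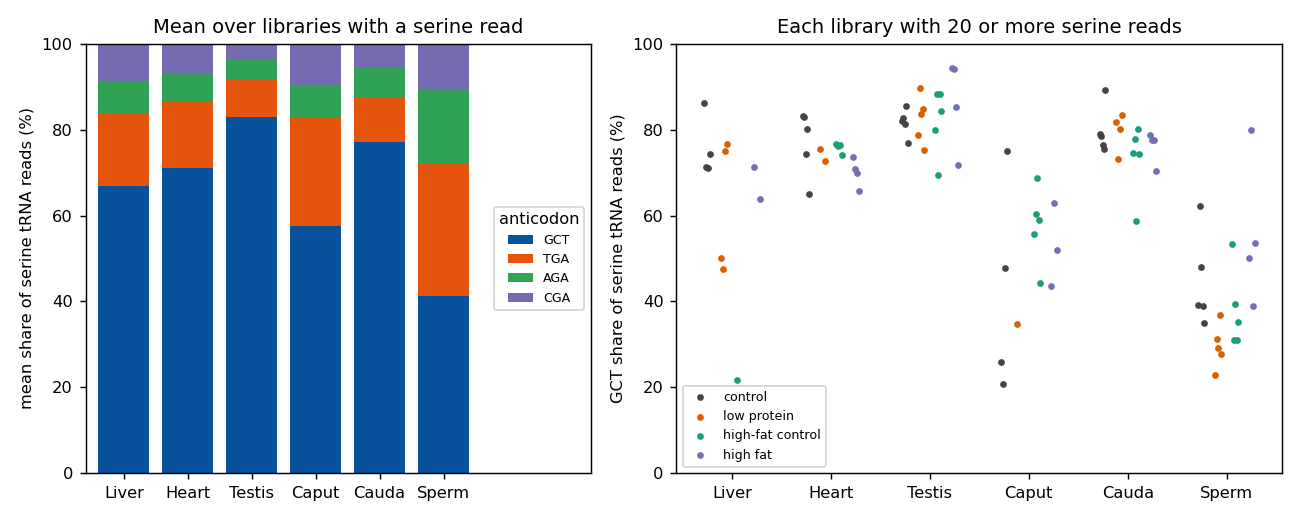
Left: mean share of each anticodon in the serine tRNA reads (%) over libraries with a serine read, by tissue. Right: GCT share (%) in each library with 20 or more serine reads, coloured by diet. Sperm libraries lie between 22.9% and 80.0% and testis libraries between 69.4% and 94.5%.

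All 4 GCT members had their highest median level in testis, and GCT-1 was the one whose testis median exceeded that of the next tissue, cauda, by the widest ratio. It was singled out after its values were seen, so its shares are a description without a test. It was the only member with 0 reads in every library of a tissue, which was caput. Its reads ran from 34.6 to 1125 RPM in testis, with a median of 362, and it was present in 19 of 19 testis libraries. The median was 14.6 RPM in cauda, 9.29 in heart, 3.65 in liver and 0 in sperm. Against a floor of 3 reads over the summed caput libraries (4.34 RPM), the summed testis level of 536 RPM was at least 123-fold higher. That sum weights the deepest libraries most, since C libraries gave 1158 of its 1662 reads, and it sets no bound for a single testis library.

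Over libraries with 20 or more GCT reads, GCT-1 took 3.87% ± 1.18 (SD, n = 19) of the GCT reads of testis, from 1.64% to 5.93%. Heart gave 1.42% ± 0.610 (n = 15), liver 1.59% ± 1.53 (n = 9), sperm 0.479% ± 0.877 (n = 16) and cauda 0.386% ± 0.562 (n = 18). Only 1 liver library, at 5.19%, exceeded the testis median of 3.92%, and the highest library was at 2.70% in heart, 2.90% in sperm and 1.90% in cauda. Summed over libraries, 1662 of 41330 GCT reads in testis were GCT-1 (4.02%, 95% Clopper-Pearson interval 3.83% to 4.22%, counting error only), and 8 of 1066 in sperm (0.750%, 0.325% to 1.47%). In caput, 0 of 645 GCT reads gave a Clopper-Pearson upper bound of 0.570%, and the floor of 3 reads allows a share of up to 0.465%. The testis diets differed little in the median: 4.17% in C, 4.50% in LP and 3.84% in HF, with 2.65% in CHF, where 5 libraries held 16 GCT-1 reads in all.

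**Figure D3:**
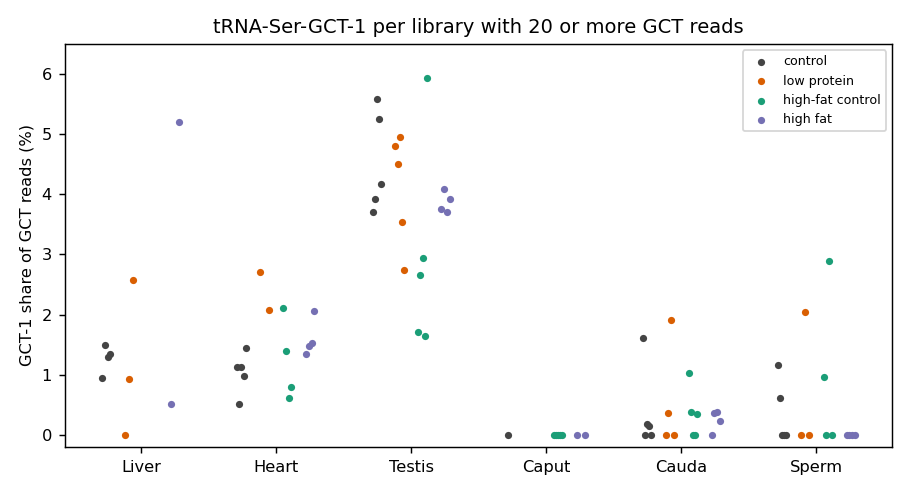
GCT-1 as a share of GCT reads (%) in each library with 20 or more GCT reads, by tissue and coloured by diet. Testis libraries lie between 1.64% and 5.93%, and the 8 caput libraries lie at 0.

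Tissue differences in level were then tested entry by entry with edgeR's quasi-likelihood test over all features, with tissue and diet as terms. An entry was called where the Benjamini-Hochberg adjusted p was under 0.05 and the log2 fold change was 1 or more in either direction. Of the 10 members 9 passed the filter on low counts, and GCT-1 did not. Along the male tract the GCT entries tested were lower in caput than in testis, higher in cauda than in caput, and lower in sperm than in cauda, the last by an amount that depends on the scaling.

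From testis to caput 4 of 9 members fell, beside 45.9% of all 294 features tested that were lower. They were GCT-2 (log2 fold change -2.33, SE 0.45, edgeR adjusted p = 3.86e-06), GCT-3 (-2.26), GCT-4 (-1.99) and AGA-1 (-1.13). The remaining members ranged from -0.75 for TGA-1 to 0.06 for CGA-2, and the median of the tested members was -0.75 against -0.89 over all features. The share called for serine tRNAs was thus near the background of this comparison. The number rose to 7 with relative log expression (RLE) factors, to 9 scaled to cytosolic tRNA reads, and to 10 in control-diet libraries alone, where GCT-1 was also tested. With 0 reads in every caput library, GCT-1 could only be called lower there, so its call adds no support.

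From caput to cauda 7 of 9 members rose, against 36.1% of all features. GCT-2 rose by 2.60, GCT-3 by 2.58 (SE 0.43, edgeR adjusted p = 9.13e-08), GCT-4 by 2.50, AGA-1 by 2.07, TGA-1 by 1.56, CGA-1 by 1.49 and AGA-2 by 1.45 on the log2 scale. CGA-2 at 0.94 and TGA-2 at 0.82 were not called. Summed per anticodon, GCT rose by 2.66, AGA by 2.14, CGA by 1.23 and TGA by 1.22. The median of the tested members was 1.56 against 0.62 over all features, and 8 or 9 members were called under the other 3 scalings.

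From cauda to sperm 4 of 9 members fell, against 22.1% of all features, and 3 of the 4 were GCT entries. GCT-2 gave a log2 fold change of -2.46 (SE 0.43, edgeR adjusted p = 1.09e-06), GCT-4 -2.25, GCT-3 -1.91 and CGA-1 -1.23. The GCT sum changed by -1.83 (SE 0.47, edgeR adjusted p = 0.000732), while the TGA sum (0.74), the AGA sum (0.54) and the CGA sum (0.05) were not called. The zero point of this comparison depends on the scaling: the median of all features was -0.01 with TMM factors, 0.94 with RLE factors and 1.44 when libraries were scaled to cytosolic tRNA reads. With those last scalings 7 members were called, 4 or 5 of them higher and 3 or 2 lower, while the GCT sum stayed negative, at -1.26 and -0.92. In control-diet libraries alone no member was called, and the GCT sum was at -1.89 (edgeR adjusted p = 0.056).

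Between testis and sperm 3 GCT entries were called lower and 5 of the 6 UCN entries higher. GCT-2 (-2.19), GCT-4 (-1.74) and GCT-3 (-1.59) were lower in sperm, beside 45.9% of all features that were lower. AGA-1 (1.33), TGA-2 (1.33), TGA-1 (1.31), AGA-2 (1.15) and CGA-2 (1.13) were higher, beside 29.9% of all features that were higher. CGA-1 was not called (0.15, SE 0.47), and its median level was 57.2 RPM in testis and 15.4 in sperm. The sums moved likewise, with GCT at -1.52 (SE 0.46, edgeR adjusted p = 0.00175) and TGA at 1.64 (SE 0.45, edgeR adjusted p = 0.000609). The GCT sum was negative under the other scalings as well, from -0.99 to -2.26. The higher levels were less stable. No UCN entry was called higher with total counts, in control-diet libraries alone (TGA sum 0.26) or without the libraries of replicate 3, and without the single sperm library LP replicate 3 the TGA sum was at 0.88 (edgeR adjusted p = 0.062).

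For heart against liver the direction depended on the scaling. The median tested member was at 0.75 with TMM factors, -0.07 with RLE factors and -0.84 with total counts. With TMM factors 4 of 9 members had an unadjusted edgeR p under 0.05. GCT-3 was the 1 member of 9 called higher in heart (1.08, SE 0.42, edgeR adjusted p = 0.0354), beside 16% of all features. It lost the call with RLE factors (0.21) and turned to -0.57 with total counts, where 2 members were called lower. In control-diet libraries the GCT sum was at -0.13.

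**Figure D4:**
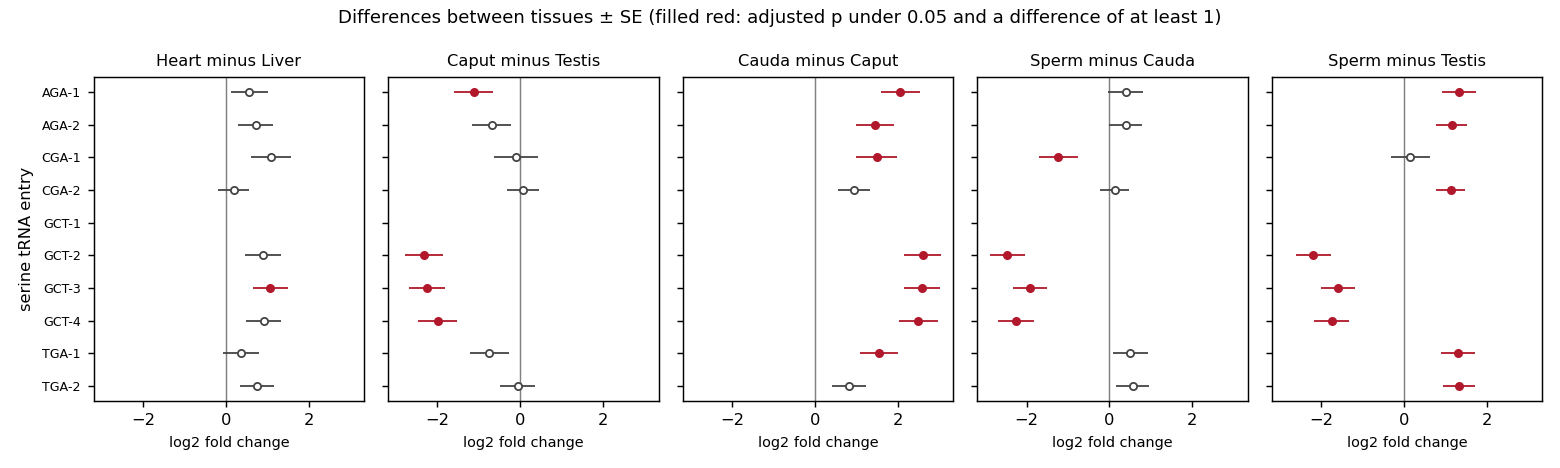
Log2 fold change between tissues for each serine tRNA entry, with bars of 1 SE, from edgeR over all libraries. Filled red points passed an adjusted p of 0.05 with a difference of at least 1, and GCT-1 was not tested. GCT-2, GCT-3 and GCT-4 lie at or below -1.59 in the comparison of sperm with testis, where AGA-1, TGA-1 and TGA-2 lie at 1.31 or above.

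Serine tRNAs of the heart were lower on the low-protein diet than on the control diet. GCT-3 was at 853, 1089.9, 576, 1009 and 807 RPM in the 5 control libraries and at 28.3, 47.9, 34.2, 195 and 134 in the 5 LP libraries. The groups did not overlap. AGA-1, a reader of UCN codons, was at 59.5, 64.2, 71.7, 78.9 and 137 RPM in C and at 0, 5.33, 34.2, 0 and 4.25 in LP, again without overlap. These LP values rest on very few reads: the 5 LP libraries held 213 reads of all serine members together, and the smallest library held 29211 reads. The lack of overlap for AGA-1 thus carries little weight. The TGA members summed gave 112, 159, 141, 170.0 and 308 RPM in C and 11.3, 26.6, 34.2, 55.7 and 40.4 in LP, and every LP library lay below every control library.

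All 9 heart members that passed the filter on low counts fell, beside 41.7% of all 242 features tested that were lower, at an edgeR adjusted p under 0.05. The log2 fold change was -4.34 for AGA-1 (SE 0.70, edgeR adjusted p = 1.99e-09) and -3.44 for GCT-3 (SE 0.54, edgeR adjusted p = 9.35e-10). The size for AGA-1 is uncertain, since its LP reads were very few. TGA-1 was at -2.94, GCT-2 at -2.89, GCT-4 at -2.76, AGA-2 at -2.57, CGA-2 at -2.51 and TGA-2 at -2.39. CGA-1 changed least, at -1.36 (edgeR adjusted p = 0.0473). The median of these members was -2.76 against -0.29 over all features, and 8 were called under each of the other scalings.

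The fall in heart was shared by most other cytosolic tRNAs: of 89 entries other than serine, 68 were lower and 6 higher, with a median of -3.14. The leucine tRNAs, which carry the same long variable arm, were lower in 12 of 12. The selenocysteine tRNA went the other way, from 46.3, 81.6, 41.8, 59.8 and 109.7 RPM in C to 39.6, 26.6, 308, 678 and 321 in LP (log2 fold change 1.603, edgeR adjusted p = 0.00175), and these groups overlapped. The mitochondrial serine tRNA of anticodon TGA was lower (-1.70, SE 0.48, edgeR adjusted p = 0.000706). Among cytosolic tRNA reads, serine took 0.77% in the median control library and 0.08% in the median LP library, with ranges of 0.51% to 0.82% and 0.03% to 0.14%. Depth and class make-up moved with this result: LP libraries held 5 to 132 serine reads against 1061 to 2546 in C, and cytosolic tRNA took 22.3% ± 1.0 of reads in C but 5.35% to 52.2% in LP. Their part in the result was not tested beyond the scaling to cytosolic tRNA reads, under which the GCT sum was at -3.12.

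In liver, too, serine tRNAs were lower in LP than in C, a difference that was known when the serine tRNAs were chosen and is given here as the base for the values per anticodon. The GCT members summed gave 1376, 8963, 4126 and 3226 RPM in the 4 control libraries and 519.5, 50.8, 184, 879.8 and 685 in the 5 LP libraries, with no overlap. The TGA members gave 129.8, 2047, 1016 and 573 RPM in C and 119.9, 61.02, 114, 158 and 99.9 in LP, and here 1 control library lay within the LP range. The CGA members overlapped more, at 64.9, 742, 341 and 176 RPM in C and 279.7, 30.5, 50.8, 65.6 and 41.1 in LP.

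In the same fit all 7 liver members tested were called lower, beside 25.9% of all 205 features tested, and these calls restate the known difference. Of 63 other cytosolic tRNA entries, 45 were lower. Log2 fold changes ran from -3.41 for TGA-1 to -2.01 for CGA-2. The anticodon sums were at -3.47 for GCT (SE 0.91), -3.30 for TGA, -3.08 for AGA and -2.54 for CGA. The median member was at -2.66 against 0.13 over all features and -2.40 over the other cytosolic tRNA entries. The count fell to 3 when libraries were scaled to cytosolic tRNA reads, to 4 without LP replicate 2, and to 3 without LP replicate 5 or without control replicate 2. Cytosolic tRNA took 63.02% ± 9.09 of reads in the liver control libraries and a median of 21.9% in LP. The selenocysteine tRNA (0.01) and the mitochondrial serine tRNA of anticodon TGA (-0.07) were not called.

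Outside liver and heart, no serine tRNA was called between LP and C. In testis 0 of 10 members were called (0% of all features), GCT-3 being at 11416, 7924, 1187, 4519 and 13258 RPM in C and 5881, 15971, 5817, 14769 and 2021 in LP. The median member of testis was at -1.15, but at -0.08 with total counts and 0.41 when scaled to cytosolic tRNA reads, so its sign depends on the scaling. No serine entry in testis passed an unadjusted p of 0.05. Of all 447 features 40 did, and all 40 were among the 98 other cytosolic tRNA entries tested, whose median was -1.22. In caput 0 of 3 tested members were called, beside 41.4% of all features, and 1 or 2 were called higher when LP replicate 4, C replicate 1 or C replicate 4 was left out. In cauda 0 of 9 were called (0% of all features), 4 of them with an unadjusted p under 0.05, all 4 lower. In sperm 0 of 6 were called (0% of all features) and 0 had an unadjusted p under 0.05. DESeq2 also called 0 serine entries in testis, cauda and sperm.

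The difference between tissues was itself tested as a tissue by diet term. Liver, where the difference was known beforehand, is among the tissues, so this test is not independent of that knowledge. The effect of LP against C differed among the 6 tissues for 5 of 10 members, beside 35.9% of the 410 features tested: GCT-3 (edgeR adjusted p = 0.0017), AGA-1 (0.0029), TGA-2 (0.0031), TGA-1 (0.0089) and GCT-4 (0.042). The share was higher among the other cytosolic tRNA entries, 54 of 89, and among the leucine tRNAs, 10 of 12. The sums of TGA (0.0036), GCT (0.0064) and AGA (0.0089) passed as well, and that of CGA did not (0.17). Without the 3 libraries under 5000 reads, 3 of the 5 members remained.

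No serine tRNA was called between the high-fat diet and its own control. Compared with CHF, 0 members were called in liver (of 7, 2.93% of all features), heart (of 9, 1.24%), testis (of 10, 0%), caput (of 3, 0.69%), cauda (of 9, 0%) and sperm (of 6, 0%). At an unadjusted p under 0.05 there were 1 in liver, 1 in cauda and 2 in sperm. Heart gave the narrowest estimates: GCT-3 was at 824, 530.5, 1008, 0 and 498 RPM in CHF and 943, 711, 567 and 709 in HF, and its log2 fold change was 0.15 (SE 0.50). In sperm AGA-1 was at -1.90 (SE 0.80, edgeR adjusted p = 0.90), with 468, 1131, 178, 634 and 195 RPM in CHF and 97.6, 0, 131 and 137 in HF. These groups did not overlap. A difference by tissue was called for 0 of 9 members, beside 3.17% of all features, and for 2 when no filter on low counts was used. An adjusted p above the threshold does not show that the diets gave equal levels.

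The 2 control diets were compared as well. These contrasts share the C libraries with those of LP. In testis 10 of 10 members were lower in CHF than in C, beside 29.8% of all 447 features tested that were lower. So were 87 of 98 other cytosolic tRNA entries. GCT-3 was at 11416, 7924, 1187, 4519 and 13258 RPM in C and 2817, 2565, 1315, 2407 and 1773 in CHF. The groups overlapped through control replicate 3. Log2 fold changes ran from -4.07 for AGA-1 (SE 0.93, edgeR adjusted p = 0.00186) to -3.32 for AGA-2, with a median of -3.56 against 0.11 over all features, and 14 of 14 leucine tRNAs were lower too. The size depended on the scaling: the GCT sum was at -4.02 with TMM factors, -1.85 with total counts, where 7 members were called, and -0.77 when scaled to cytosolic tRNA reads (edgeR adjusted p = 0.21), where 0 were called. Cytosolic tRNA took 62.8% ± 18.1 of reads in testis C and 33.1% ± 2.8 in CHF.

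In liver 4 of 7 members were lower in CHF than in C, beside 20% of all features: GCT-4 (-4.69), GCT-2 (-4.21), GCT-3 (-3.97) and TGA-1 (-3.17). Of 63 other cytosolic tRNA entries in liver, 35 were lower. The 4 CHF liver libraries held 46 serine reads in all, against 9014 in the 4 C libraries. The filter on low counts used all 4 diets, so an entry could pass through the C libraries, where it was high. The count of members called lower in liver thus carries little weight. In caput the 3 members tested were higher in CHF, beside 17.9% of all features that were higher. CHF held 678 serine reads in caput and C 249, so these members may have passed the filter largely through CHF. That all members tested were higher thus carries little weight. Of 39 other cytosolic tRNA entries in caput, 22 were higher. Caput GCT-3 was at 93.2, 510.0, 40.5, 641 and 196 RPM in C and 1403, 700.2, 1423, 639 and 506 in CHF, with overlap, and rose by 1.96 (SE 0.60, edgeR adjusted p = 0.0223). GCT-2 rose by 1.64 and TGA-2 by 1.26, and 1 member was called with DESeq2, when scaled to cytosolic tRNA reads, or without CHF replicate 1 or C replicate 3. In heart 0 of 9 were called although 57% of all features were, and 8 were called lower when every deposited entry entered the fit. Of 89 other cytosolic tRNA entries in heart, 49 were lower and 8 higher. In cauda 0 of 9 and in sperm 0 of 6 were called (0% of all features in both).

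**Figure D5:**
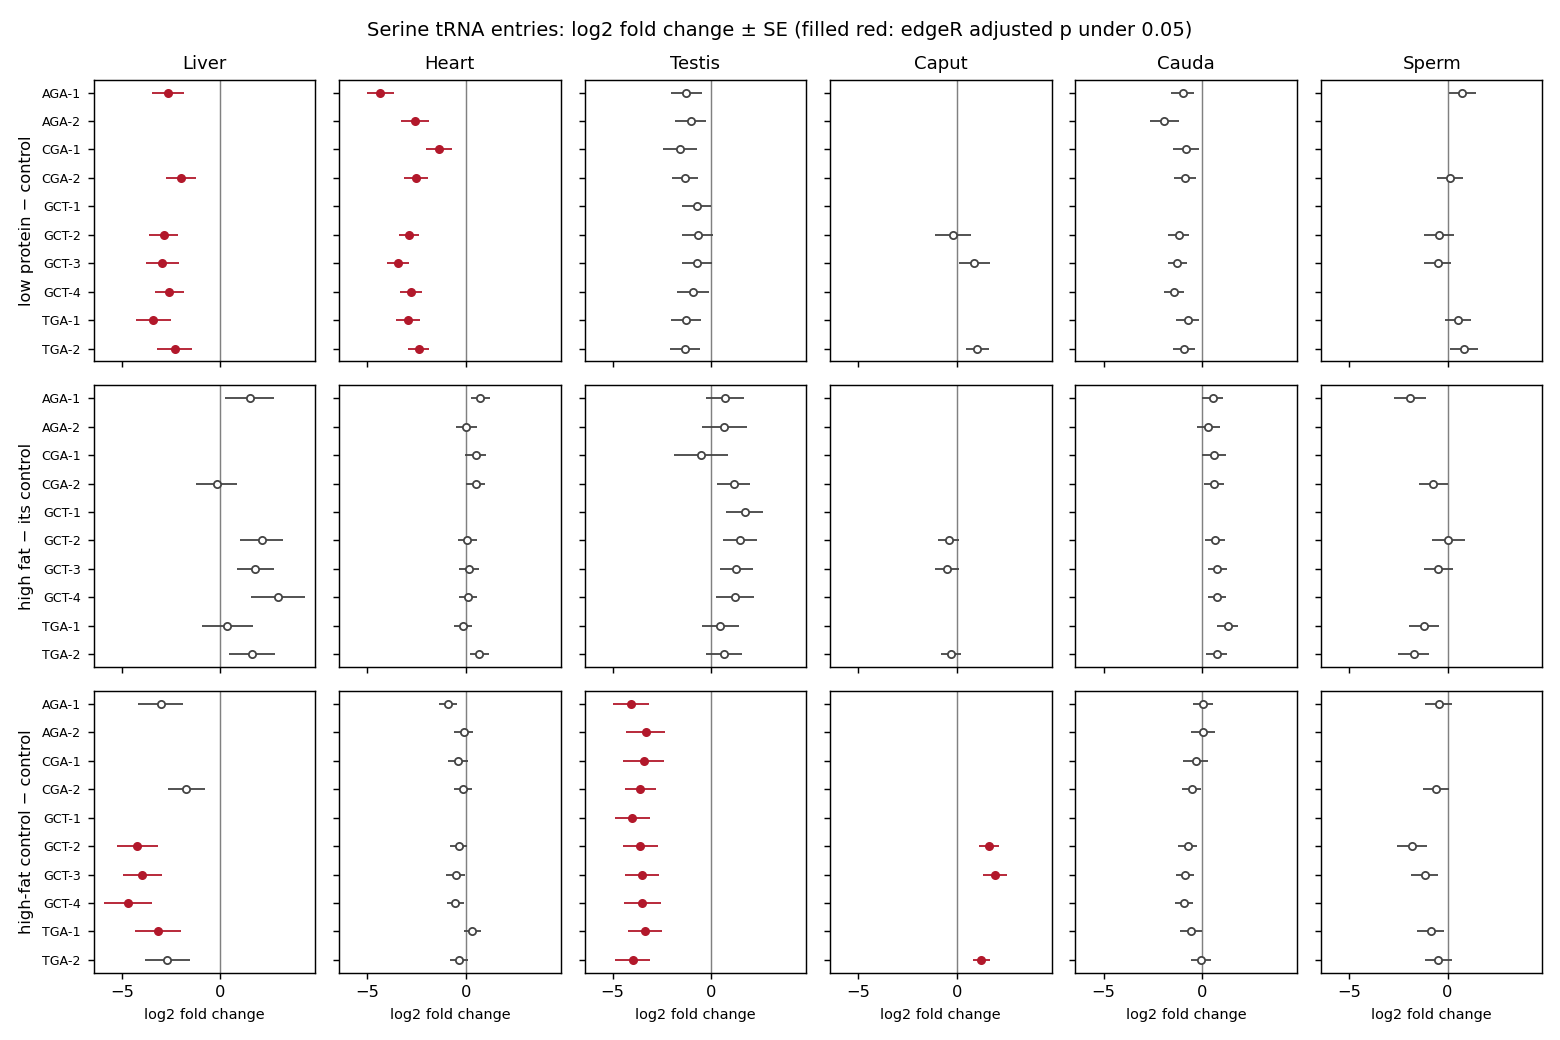
Log2 fold change between diets for each serine tRNA entry in each tissue, with bars of 1 SE, from edgeR; filled red points passed an adjusted p of 0.05 and missing points were not tested. In the row of LP against C, red points are found in liver (7 entries) and heart (9 entries), and the row of HF against CHF has none.

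The make-up of the serine pool was compared between diets through the GCT share, in 14 of 18 contrasts, those with at least 3 libraries of 20 serine reads per group. Exact two-sided permutation tests were adjusted together. None passed, but at 5 libraries against 5 the exact test cannot go below 0.0079, which is 0.11 after adjustment when no other contrast is as small, so a single contrast could not pass. Sperm of LP mice gave 29.6% ± 5.13 (SD, n = 5) against 44.6% ± 10.95 (n = 5) in C, a difference of -15.1 points, with overlap between the groups (exact permutation p = 0.016, adjusted 0.2). Heart gave 70.0% ± 3.32 (n = 4) in HF against 75.8% ± 1.19 (n = 4) in CHF, a difference of -5.80 points without overlap (exact permutation p = 0.029, adjusted 0.2). The other 12 contrasts had exact permutation p values of 0.095 or more. Where groups held 4 libraries each, the exact test cannot go below 0.029. The contrasts left out were LP against C in heart and caput and both CHF contrasts in liver.

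The other RNAs charged with serine did not follow the cytosolic serine tRNAs across tissues. The selenocysteine tRNA, which places selenocysteine into selenoproteins, had its highest level in sperm, with a median of 7826 (2115 to 15451) RPM, against 1750.5 in testis and 803 in cauda. It was higher in sperm than in cauda by 3.30 (SE 0.37, edgeR adjusted p = 3.28e-13) and than in testis by 2.80 on the log2 scale, in the contrasts where GCT entries were lower. The mitochondrial serine tRNA of anticodon TGA was highest in testis, at a median of 1574 RPM, and lowest in cauda, at 103. The mitochondrial GCT tRNA had a median of at most 10.6 RPM in every tissue.

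Across the 24 groups of tissue and diet, the 3 UCN anticodons varied together more closely than any of them with GCT. The likeness was measured as Pearson's r of log2(mean RPM + 1) and is a description, since groups share depth and class make-up. AGA with TGA gave 0.965, CGA with TGA 0.960 and AGA with CGA 0.941, whereas GCT gave 0.822 with CGA, 0.817 with AGA and 0.797 with TGA. Among 240 features outside the serine tRNAs, the closest to GCT were tRNA-Thr-CGT-1 (0.928), tRNA-Arg-CCG-3 (0.921) and tRNA-Cys-GCA-3 (0.882). TGA was closest to 3 leucine tRNAs, tRNA-Leu-TAG-1 (0.939), tRNA-Leu-TAG-3 (0.916) and tRNA-Leu-TAA-1 (0.909). AGA and CGA shared their 3 closest features, tRNA-Asn-GTT-3, tRNA-Val-CAC-3 and tRNA-Leu-TAG-1, with r from 0.890 to 0.923.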

How the data were processed

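Small RNA of 6 tissues was measured in 24 groups of 4 or 5 libraries. The deposited table lists read counts, whole numbers without normalization by the authors, for named small RNAs. Per the submitters' processing notes, the tools were cutadapt and DESeq2 and the build mm10. The aligner, the rule for reads that match several copies and what gt65 stands for in the column names were not stated in the sources used. Of 1268 deposited entries 1042 were kept, after 22 second names of mitochondrial tRNAs, 55 further 5S entries and 149 other entries that listed the same reads within 5% were dropped. The kept entries hold 51.1% of the summed counts. Libraries held 827 to 1467880 reads, and the number of serine reads per library limits the precision of each value. Among 204 pairs of libraries within groups none agreed within counting noise.

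Groups and replicate numbers came from the titles. Diets were compared within each tissue, and tissues over all diets with diet as a term, by edgeR 4.0.16 (TMM factors, its filter on low counts, quasi-likelihood F test, R 4.3.3), with Benjamini-Hochberg adjustment over all features tested. Between diets the filter used all libraries of a tissue together, so an entry could pass through the group where it was high. For sums per anticodon, the counts of all entries of each anticodon were added over the whole table, left-out serine entries included, and refitted. RPM values and shares use the 10 members. Shares were compared with permutation tests in scipy 1.17.1. Intervals cover counting error only, since PCR copies are not marked. Sensitivity was checked with RLE factors, total counts, cytosolic tRNA reads as library size, no filter, DESeq2 1.42.0, all deposited entries, no libraries under 5000 reads, a replicate block and each replicate left out. The edgeR test between diets was tried on simulated counts made from the testis LP and C libraries, and the other steps were not tested on simulated data.

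The members and lists were chosen with earlier results of these data known. Named are every member and every anticodon sum, beside them the selenocysteine, mitochondrial serine and leucine tRNAs, and for each sum the 3 features of highest likeness among those averaging at least 100 RPM. GCT-1 and the GCT share were singled out after their values were seen. RefSeq sequences of the members were not used here.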

Additional observations from a re-analysis of the deposited data

Results flagged for a closer look

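Sperm LP replicate 3 stood apart from the other 4 libraries of its group in 3 of the 4 anticodon sums. It held 6669 RPM of AGA against 525 to 1325 in the others, 11631 RPM of TGA against 825 to 2617, and 7971 RPM of GCT against 594 to 2352. These rest on 82, 143 and 98 reads, and 68.4% of the reads of the library were cytosolic tRNA. Its selenocysteine tRNA was at 2115 RPM against 5687 to 10526 in the others. Testis HF replicate 3 stood apart with 554 RPM of AGA against 98.8 to 141 and 1084 RPM of TGA against 98.8 to 246. Caput C replicate 4 held 549 RPM of TGA against 98.2 to 221. The CGA sum was 279.7 RPM in liver LP replicate 1 against 30.5 to 65.6, from 7 reads, and 296 RPM in testis CHF replicate 3 against 102 to 120, from 9 reads. These 8 values came from 96 checks, the 4 anticodon sums in each of the 24 groups of 4 or 5 libraries. Chance flags about 1 in 20 separate checks. The 4 sums share libraries and are not separate, so that rate is a rough guide here.

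The effect of LP against C differed among the 6 tissues, by edgeR's test of the tissue by diet term, for GCT-3 (adjusted p = 0.0017), AGA-1 (0.0029), TGA-2 (0.0031), TGA-1 (0.0089) and GCT-4 (0.042). The test includes the liver difference known beforehand, and 54 of 89 other cytosolic tRNA entries passed it. For AGA-1 the log2 fold changes were -4.34 in heart, where its LP reads were very few, -2.66 in liver, -1.26 in testis, -0.98 in cauda and 0.74 in sperm. For GCT-3 they were -3.44, -2.94, -0.72, -1.25 and -0.50 in the same order, with 0.89 in caput. The sign in testis depends on the scaling: the median member there was at -1.15 with TMM factors, -0.08 with total counts and 0.41 when scaled to cytosolic tRNA reads.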

How the results depend on the processing

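Of 417 alternatives for counts of called entries and for GCT shares between tissues, 365 were treated as unchanged. For a GCT share, that meant the same direction and the same side of the threshold. For a count it allowed some change, so single entries could still gain or lose their call. The count for caput against testis went from 4 to 6 with total counts, and that for cauda against caput from 7 to 9 with RLE factors. Both were treated as unchanged. For single entries and sums, 406 of 481 refits that left out a replicate and 285 of 363 other alternatives kept the call between diets; between tissues 176 of 212 and 246 of 312 did, and 3 reversed. The values below name the counts and shares not treated as unchanged and the single values that reversed, and the cause was not tested.

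Numbers of called members between diets changed as follows. Liver LP against C gave 3 of 7 scaled to cytosolic tRNA reads and 4 with the replicate block. Liver CHF against C gave 7 with no filter on low counts. Heart CHF against C gave 1 with RLE factors, 1 with DESeq2 and 8 with all deposited entries. Testis CHF against C gave 0 scaled to cytosolic tRNA reads, and caput CHF against C gave 1 with that scaling, with no filter and with DESeq2. With each replicate left out in turn, the counts ran from 3 to 8 for liver LP, 3 to 6 for liver CHF against C, 8 to 9 for heart LP, 0 to 1 for heart CHF against C, 9 to 10 for testis CHF against C, 0 to 2 for caput LP and 1 to 3 for caput CHF against C, and were 0 in the other 11 diet contrasts. The effect of LP differed among tissues for 9 members with all deposited entries and 3 without libraries under 5000 reads, and that of HF for 2 with no filter.

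Between tissues, heart against liver gave 0 called members with RLE factors, cytosolic tRNA scaling, no filter, DESeq2, all deposited entries, the replicate block, control-diet libraries alone and without libraries under 5000 reads. With total counts it gave 2, both lower, GCT-3 was at -0.57 and the GCT sum at -0.58, and in control-diet libraries that sum was at -0.13. Caput against testis gave 7 with RLE factors, 9 scaled to cytosolic tRNA reads, 7 with no filter and 10 in control-diet libraries, the last including GCT-1 with 0 caput reads. Sperm against cauda gave 7 with RLE factors and with DESeq2 (4 higher, 3 lower), 7 scaled to cytosolic tRNA reads (5 higher, 2 lower) and 0 in control-diet libraries. Sperm against testis gave 3 with total counts, 7 with no filter, 4 with all deposited entries, 4 in control-diet libraries and 3 without replicate 3. Leaving out replicate numbers, or sperm LP replicate 3 alone (chosen after seeing the data), gave 0 to 3 for heart against liver, 3 to 4 for caput against testis, 6 to 8 for cauda against caput, 3 to 4 for sperm against cauda and 3 to 8 for sperm against testis.

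All alternatives for the GCT share were chosen after seeing the data. In HF libraries alone it differed by -33.7 points for caput minus testis, 23.3 for cauda minus caput, -20.4 for sperm minus cauda and -30.8 for sperm minus testis. None could pass the threshold at these group sizes. Without sperm LP replicate 3, sperm minus cauda was -35.1 and sperm minus testis -41.1. The diet contrasts of the share could not pass singly at these group sizes, so their alternatives say nothing about stability.

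The replicate block changed no other call count by over 1.5 times. Over 157 pairs of the same tissue and replicate number in different diets, deviations correlated from -0.758 to 0.673, with a median of 0.037. Over 270 pairs of the same diet and library number in different tissues, the range was -0.579 to 0.636, with a median of 0.005. Libraries of different diets cannot come from the same mouse. Whether libraries of different tissues came from the same mouse was not tested. The interaction tests were not refitted with a replicate block or with replicates left out. Serine reads limit what can be seen, above all in caput (median 24 a library) and in liver CHF (46 in all).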
